A study of Mus musculus with 8 samples.

Results

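Genes that mark sinusoidal endothelial cells, macrophages, stellate cells with fibroblasts, and bile duct cells were compared in mouse liver after 22 weeks of fasting on alternate days. The 41 marker genes were taken by symbol from the table of 21358 genes, and all 41 were found: 10 endothelial, 12 macrophage, 11 stellate and fibroblast, and 8 biliary genes. Whole liver RNA was sequenced in 8 libraries. The 4 SG libraries (101, 103, 104 and 105) come from mice labelled starvation glucose, which took glucose in the fasted state. The 4 FG libraries (93, 94, 95 and 96) come from mice labelled feeding glucose, which took it in the fed state. All mice of both groups were on the same alternate-day regimen, and no group without glucose or without fasting is compared here. The labels name liver as the tissue and give no strain, sex, age, genotype or hour of collection. They do not state whether each library is its own animal, and p-values here therefore reflect the spread among these 8 libraries, which may be technical.

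Hepatocytes make up most of the liver's mass, and the remaining cells line its vessels and ducts. Sinusoidal endothelial cells form a perforated lining and clear waste molecules through scavenger receptors, while Kupffer cells, the resident macrophages, sit inside the sinusoids and take up particles from portal blood. Stellate cells store vitamin A beside the sinusoids and make collagen when activated. Cholangiocytes line the bile ducts and contain keratins, some of which hepatocytes lack. In RNA from whole tissue, fewer cells of a type and less RNA per cell cannot be told apart, so the values below are marker levels and not cell numbers.

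Levels are FPKM, fragments per kilobase of gene scaled to the fragments counted in the library. The libraries held 36545128 to 39214619 fragments in SG and 38253764 to 41977438 fragments in FG, and this difference in depth did not pass the threshold (exact two-sided permutation p = 0.171, n = 4 each). Markers of the labelled tissue were abundant in all libraries, with albumin (Alb) at 35965 to 49861 FPKM in SG and 38212 to 45639 FPKM in FG. Genes of other organs were high in some libraries. Summed FPKM of 3 skeletal muscle genes (Ckm, Acta1 and Myh4) reached 228 in SG 104 and 730 in FG 93, that of 6 pancreatic enzyme genes reached 253 in FG 94, and that of 6 adrenal genes reached 89.7 in FG 95. The adrenal genes were chosen after their values were seen.

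Most markers of the non-hepatocyte cells did not differ between SG and FG past the threshold. A gene was tested when it reached 1 FPKM in at least 4 of the 8 libraries, which 37 of the 41 markers did. Col1a1, Krt7, Epcam and Sox9 did not reach that level. The test was limma on log2(FPKM + 1), with an adjusted p below 0.05 over all 9867 genes tested. Of the 37 markers, 6 (16.2%) passed, against 1912 of all tested genes (19.4%). Higher in SG were 2 markers, Tff3 and Lgals4, where 3.73% of all tested genes were higher. Lower in SG were 4, Clec4g, Fcgr2b, Krt23 and Spp1, where 15.6% of all tested genes were lower. The share of markers called is thus close to that of genes in general, and 4 of the 6 calls fell on the biliary list.

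The median log2 fold change (SG minus FG) was -0.11 over the 37 tested markers and -0.14 over all tested genes. Median-ratio scaling, which sets the typical gene to the same level in each library, moved these medians to 0.04 and 0.01. After it 3 of the 6 calls remained, Krt23, Tff3 and Lgals4, where 10.6% of all tested genes were called (5.52% higher and 5.06% lower). The count depended on single libraries: limma called 2 markers without FG 93, FG 94 or FG 95, 3 without SG 104 or SG 105, 4 without SG 103 or FG 96, and 7 without SG 101. Without FG 93 and SG 104, the libraries highest in muscle genes, it called 0 of the 37 and 282 genes in all, with 8 of the 37 at an unadjusted p below 0.05. With all 8 libraries, 10 of the 37 and 3517 of all 9867 tested genes were at that level. The 4 SG values all lay on one side of the 4 FG values for 5 of the 37 tested markers, and this was so for 26.1% of all tested genes. The 95% interval of the fold change lay within a 2-fold change on the log2(FPKM + 1) scale for 28 of the 37 markers and reached it for 9. On that scale a difference of 2-fold was therefore outside the interval for most markers. It was not for Lyve1, Marco, Lyz2, H2-Aa, Des and Krt19, nor for the called genes Krt23, Tff3 and Lgals4. The scale understates changes of low genes, for which a 2-fold change in FPKM may lie within the interval. For Hgf, at a mean of 1.25 FPKM in FG, the interval reached 0.99, and 1.09 after median-ratio scaling.

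**Figure D1:**
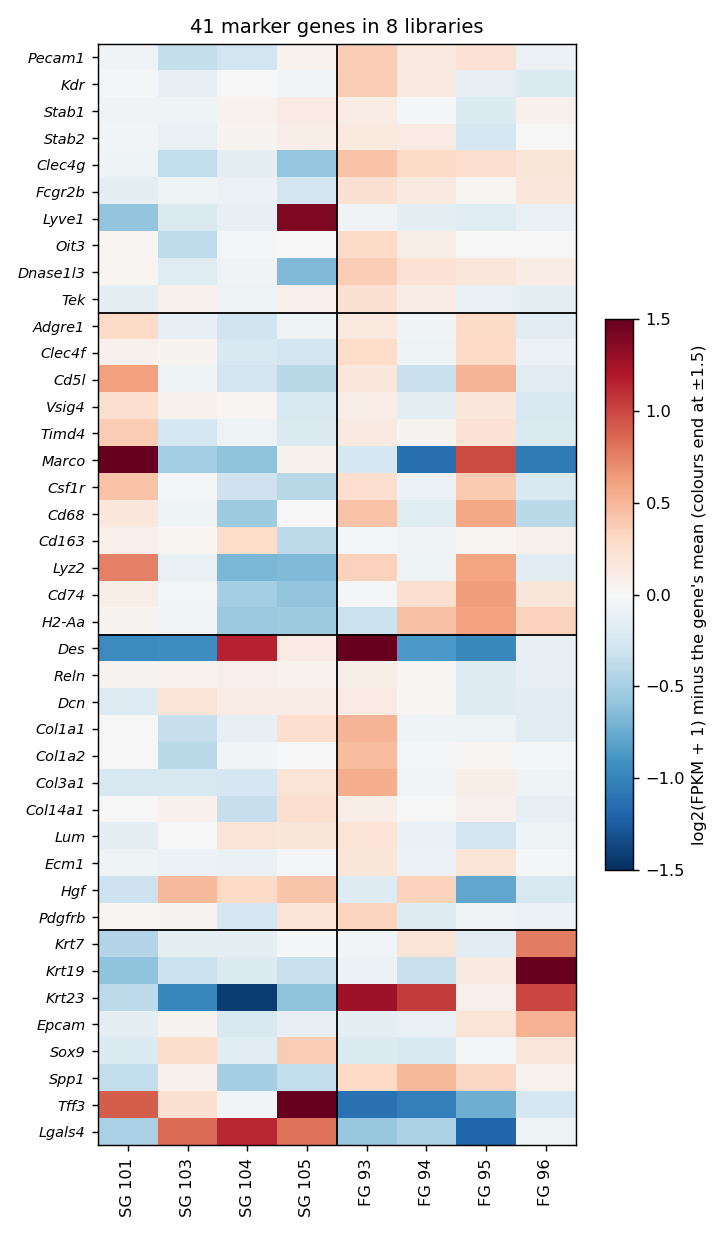
Each row is a marker gene and each column a library (SG left, FG right). Colour gives log2(FPKM + 1) minus the gene's mean over the 8 libraries, and horizontal lines separate endothelial, macrophage, stellate and biliary genes. Krt23 is low in all 4 SG libraries and Tff3 is high in SG 101 and SG 105, while Marco, Des and Krt19 stand out in single libraries (SG 101, FG 93 and FG 96).

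**Figure D2:**
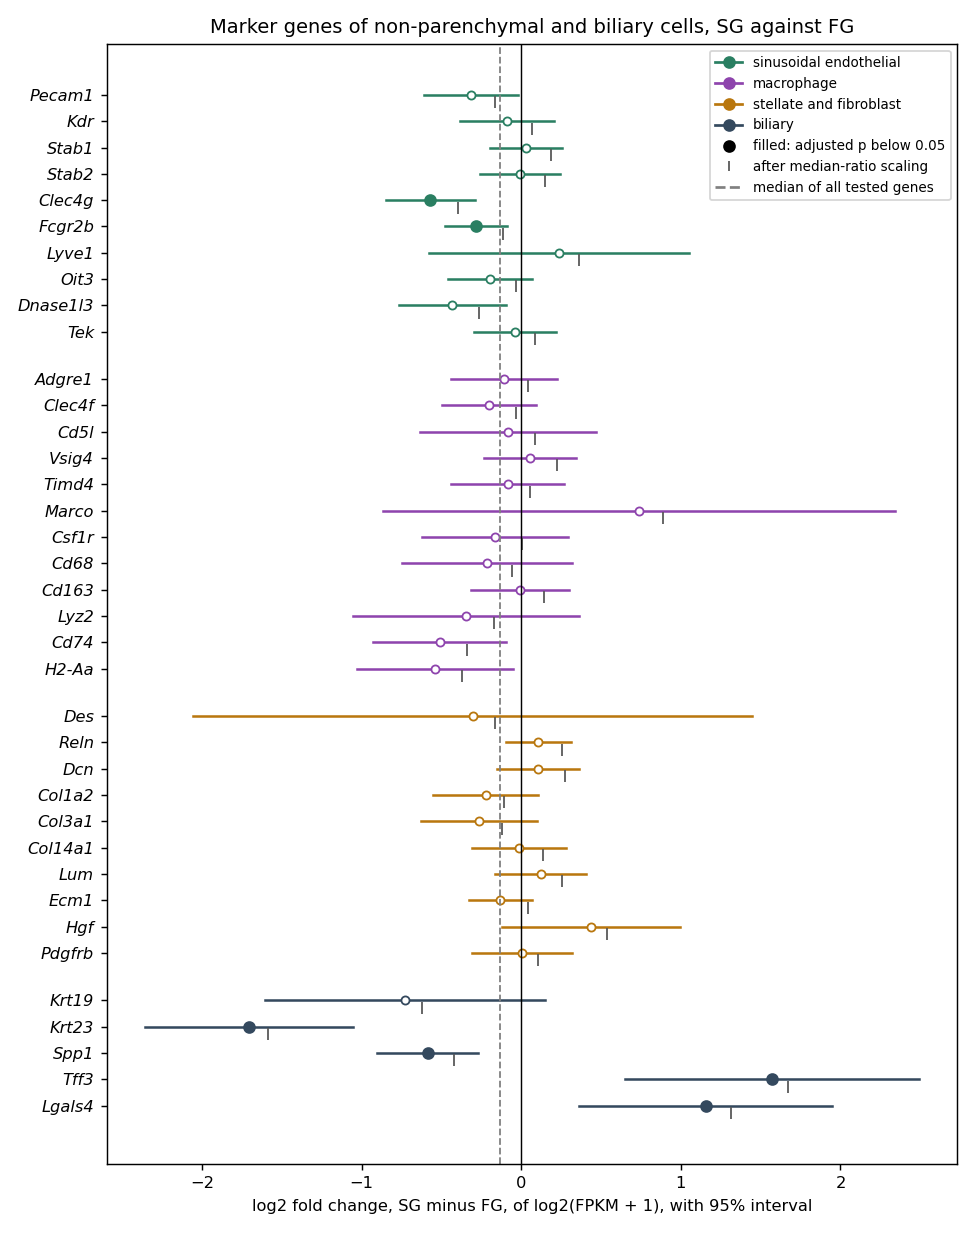
Points give the log2 fold change (SG minus FG) of each of the 37 tested markers, and lines its 95% interval. Filled points passed an adjusted p of 0.05, short vertical ticks give the value after median-ratio scaling, and the dashed line marks the median of all tested genes (-0.14). The points of most endothelial, macrophage and stellate markers lie near that line.

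Among the sinusoidal endothelial markers, Clec4g and Fcgr2b were called lower in SG, where 15.6% of all tested genes were lower. The other 8 of 10 did not pass the test, and neither call held after median-ratio scaling. FG 93 was the highest FG library in all 10 of these markers (6 of 10 after median-ratio scaling), against 32.1% of all tested genes, and it was the library with the highest muscle genes, whose part in these values was not tested. The median log2 fold change of the 10 was -0.14 as deposited, 0.02 after median-ratio scaling, -0.06 without FG 93 and -0.21 without SG 105. Clec4g, a C-type lectin of liver sinusoidal cells (NCBI gene 75863, chromosome 8, positions 3707066 to 3720695 in GRCm38), was the most abundant and the most different of them. Its level was 40.3, 32.4, 38.3 and 27.9 FPKM in SG 101, 103, 104 and 105, against 57.2, 51.7, 49.8 and 47.8 FPKM in FG 93, 94, 95 and 96. Every SG library was below every FG library. The means were 34.7 ± 5.66 FPKM in SG and 51.6 ± 4.05 FPKM in FG (SD, n = 4 each), a log2 fold change of -0.57 (SE 0.12, limma adjusted p = 0.0161). The exact two-sided permutation p was 0.0286, the smallest that 4 against 4 libraries allow. The call did not hold after median-ratio scaling (log2 fold change -0.40, adjusted p = 0.0542) or without FG 93 (adjusted p = 0.0514).

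Fcgr2b, the inhibitory Fc receptor with which these cells take up immune complexes (NCBI gene 14130, chromosome 1, positions 170960558 to 170976071), differed less. It measured 27.1, 28.7, 28.2 and 24.5 FPKM in SG 101, 103, 104 and 105, against 35.5, 33.0, 30.6 and 34.0 FPKM in FG 93, 94, 95 and 96. The groups did not overlap, and the log2 fold change was -0.28 (SE 0.09, limma adjusted p = 0.0456). This call rested on every library: leaving out any 1 of the 8 ended it (adjusted p 0.0534 to 0.124), as did median-ratio scaling (log2 fold change -0.11, adjusted p = 0.369). Fcgr3, a related receptor gene to which reads of Fcgr2b could be assigned, was at 2.99 ± 0.53 FPKM in SG and 2.79 ± 0.47 FPKM in FG (SD, n = 4 each).

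The upstream sequences of both called endothelial genes are shown because Clec4g and Fcgr2b are the markers of this cell type that moved. They are the 250 bases before the start in the RefSeq promoter table (build GRCm38.p6), 5′ to 3′ on the gene's strand, which is the minus strand for both, at chr8:3720652-3720901 for Clec4g and chr1:170976072-170976321 for Fcgr2b. For Clec4g that start lies inside the gene span given above, which ends at 3720695, so the bases of the window nearest the start overlap the span. Capitals mark matches to 9 short motifs searched on both strands. The letters searched were TATAAA for the motif of TATA-binding protein, CCAAT for that of nuclear factor Y, GGGCGG for the GC-rich motif of Sp1, CACGTG for the E-box and TGANTCA for the AP-1 motif. For the ETS motif they were GAGGAA, for the GATA motif TGATAA, for the HNF4 motif CAAAGT, and for the cyclic AMP response motif TGACGT. No 2 matches overlap in the sequences printed.
Clec4g: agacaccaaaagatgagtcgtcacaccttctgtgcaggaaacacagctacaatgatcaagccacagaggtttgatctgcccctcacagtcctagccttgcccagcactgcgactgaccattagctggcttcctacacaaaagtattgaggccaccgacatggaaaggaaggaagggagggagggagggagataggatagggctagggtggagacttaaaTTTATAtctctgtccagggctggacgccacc
Fcgr2b: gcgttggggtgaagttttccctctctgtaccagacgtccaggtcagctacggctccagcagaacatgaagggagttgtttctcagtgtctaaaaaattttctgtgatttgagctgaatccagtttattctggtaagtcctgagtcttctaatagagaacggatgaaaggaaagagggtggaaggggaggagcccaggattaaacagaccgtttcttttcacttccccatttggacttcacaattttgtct
The Clec4g window held TATAAA on the opposite strand, from base -31 to -26 before the start and inside the stated gene span, a motif present in 12.4% of the 32851 mouse promoter windows of that length. The Fcgr2b window held none of the 9 motifs. A match describes letters only and is not a binding site.

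The other scavenger and vascular markers had close levels in both groups. Stab1 and Stab2, the stabilins that clear hyaluronan and other ligands, averaged 7.07 ± 0.53 and 6.92 ± 0.51 FPKM in SG and 6.92 ± 0.74 and 7.001 ± 0.98 FPKM in FG (SD, n = 4 each). Their log2 fold changes were 0.03 (95% interval -0.19 to 0.25) and -0.01 (95% interval -0.26 to 0.24). Stab1 overlaps Nt5dc2, which averaged 4.21 FPKM in SG and 4.28 FPKM in FG, and reads of overlapping genes may not be separable, since the sources used here do not say whether counting used strand. Kdr, the VEGF receptor, ranged from 6.57 to 7.29 FPKM in SG and from 6.13 to 9.67 FPKM in FG. Tek, the angiopoietin receptor, was lower, at 2.16 to 2.68 FPKM in SG and 2.14 to 3.08 FPKM in FG. Neither receptor passed the test (log2 fold changes -0.09 and -0.04), and both turned positive under median-ratio scaling, as did Stab2.

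Dnase1l3, a secreted DNase, lay next to the threshold, at 18.2, 15.6, 17.0 and 10.9 FPKM in SG 101, 103, 104 and 105, against 23.2, 20.8, 20.2 and 19.2 FPKM in FG 93, 94, 95 and 96. The groups did not overlap, and its log2 fold change was -0.43 (SE 0.15, limma adjusted p = 0.0697). Without SG 101 it passed (adjusted p = 0.0395), while without SG 105 its log2 fold change was -0.28 (adjusted p = 0.0981) and after median-ratio scaling -0.27 (adjusted p = 0.238). Its adjusted p was highest without FG 93, at 0.169. Pecam1, the endothelial adhesion molecule CD31, was at 5.02 to 7.003 FPKM in SG and 6.25 to 8.89 FPKM in FG (log2 fold change -0.32, adjusted p = 0.116). Oit3, a sinusoidal protein of little-known function, was at 9.15 to 12.4 FPKM in SG and 12.1 to 15.1 FPKM in FG (log2 fold change -0.19, adjusted p = 0.267). Lyve1, the hyaluronan receptor also found on lymphatic vessels, was at 1.34, 2.05, 2.24 and 8.36 FPKM in SG 101, 103, 104 and 105, and at 2.41, 2.19, 2.12 and 2.30 FPKM in FG 93, 94, 95 and 96. A single library, SG 105, set its positive fold change of 0.24, which was -0.19 without that library. SG 105 also had the highest level of Mt1, a metallothionein induced by stress that was singled out after its values were seen, at 270 FPKM against 28.7 to 56.3 FPKM in the other SG libraries and 8.50 to 33.3 FPKM in FG. The part of this in the Lyve1 value was not tested.

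Of the 12 macrophage markers none passed the test in either direction, although 10 of the 12 fold changes were negative. Their median log2 fold change was -0.14, equal to that of all tested genes, and it was 0.02 after median-ratio scaling. It depended on single libraries, at -0.28 without SG 101, -0.21 without FG 94, -0.22 without FG 96, -0.08 without SG 104, -0.07 without SG 105, -0.09 without FG 93 and -0.04 without FG 95. At an unadjusted p below 0.05 in limma there were 2 of the 12, Cd74 and H2-Aa, against 3517 of all 9867 tested genes. Limma voom on fragments recovered from the FPKM called 0 of the 12, against 1846 of all tested genes. Lyz2, the lysozyme of myeloid cells and the most abundant marker of the list, was at 121, 65.6, 43.5 and 44.5 FPKM in SG 101, 103, 104 and 105, against 89.9, 67.5, 107 and 62.6 FPKM in FG 93, 94, 95 and 96. The groups overlapped widely, and the means of 68.5 ± 36.1 FPKM in SG and 81.7 ± 20.6 FPKM in FG (SD, n = 4 each) gave a log2 fold change of -0.35 (SE 0.31, limma adjusted p = 0.462). Its close paralog Lyz1, to which its reads could be assigned, reached at most 0.274 FPKM in SG and 0.245 FPKM in FG.

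Genes of Kupffer cells and of macrophages more widely overlapped between the groups and were not called. Clec4f, a lectin made in the mouse by Kupffer cells, averaged 25.4 ± 3.31 FPKM in SG and 29.5 ± 4.47 FPKM in FG (log2 fold change -0.20, 95% interval -0.50 to 0.09). Vsig4, a complement receptor, averaged 21.3 ± 2.92 FPKM in SG and 20.4 ± 2.78 FPKM in FG (log2 fold change 0.06, 95% interval -0.23 to 0.34). Timd4, which binds phosphatidylserine on dying cells and marks long-resident Kupffer cells, averaged 3.49 ± 0.97 FPKM in SG and 3.71 ± 0.58 FPKM in FG (SD, n = 4 each in all 3 genes). Cd5l, an apoptosis inhibitor secreted by macrophages, ranged from 36.8 to 76.4 FPKM in SG and from 39.3 to 70.8 FPKM in FG. Adgre1, the F4/80 antigen, ranged from 4.21 to 6.78 FPKM in SG and from 4.72 to 6.78 FPKM in FG. Csf1r, the receptor for the growth factor that maintains macrophages, ranged from 11.4 to 21.2 FPKM in SG and from 13.1 to 20.7 FPKM in FG, while Cd68, a lysosomal protein, ranged from 6.62 to 11.3 FPKM in SG and from 7.35 to 15.5 FPKM in FG. Cd163, the haptoglobin-haemoglobin scavenger receptor, was at 4.38 to 7.55 FPKM in SG and 5.80 to 6.39 FPKM in FG. In all of these genes the groups overlapped, and the fold changes of Adgre1, Cd5l, Csf1r, Cd163 and Timd4 were slightly negative as deposited and slightly positive after median-ratio scaling. The 95% intervals of Timd4 (-0.44 to 0.27), Cd5l (-0.64 to 0.47), Csf1r (-0.62 to 0.30) and Cd68 (-0.75 to 0.31) were wider than those of Clec4f and Vsig4.

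Marco, a scavenger receptor for bacteria and particles, varied most between libraries of the 12 macrophage markers. It was at 46.7, 4.83, 4.48 and 7.71 FPKM in SG 101, 103, 104 and 105, against 5.91, 2.81, 15.4 and 2.99 FPKM in FG 93, 94, 95 and 96. Only SG 101 and FG 95 exceeded 10 FPKM. The log2 fold change of 0.74 (SE 0.71, limma adjusted p = 0.490) came down to 0.02 without SG 101.

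Cd74 and H2-Aa, the invariant chain and an alpha chain of MHC class II, came nearest to the threshold on this list. Cd74 was at 76.3, 71.0, 50.3 and 47.5 FPKM in SG 101, 103, 104 and 105, against 70.6, 85.5, 111 and 81.4 FPKM in FG 93, 94, 95 and 96. The groups overlapped through FG 93 and the SG libraries 101 and 103. The log2 fold change was -0.51 (SE 0.19, limma adjusted p = 0.0821), with an exact two-sided permutation p of 0.0857 (n = 4 each), and it passed without SG 101 (adjusted p = 0.0414). After median-ratio scaling the log2 fold change was -0.34 (adjusted p = 0.276), and the adjusted p was 0.0877 to 0.191 without any 1 of the other libraries. H2-Aa was at 29.95, 28.2, 19.4 and 19.8 FPKM in SG 101, 103, 104 and 105, against 23.0, 39.7, 44.6 and 37.3 FPKM in FG 93, 94, 95 and 96 (log2 fold change -0.54, SE 0.22, adjusted p = 0.110). FG 93 lay among the SG libraries, and without it the gene passed (log2 fold change -0.74, adjusted p = 0.0404). After median-ratio scaling it was at -0.37 (adjusted p = 0.321), and without any 1 of the other libraries its adjusted p was 0.0714 to 0.241. H2-Ab1 and H2-Eb1, the class II beta chains, averaged 22.8 ± 4.81 and 13.4 ± 2.46 FPKM in SG and 32.5 ± 6.79 and 20.9 ± 5.27 FPKM in FG (SD, n = 4 each), with adjusted p-values of 0.0866 and 0.0603. These chains are shared by macrophages, dendritic cells and B cells, and the B-cell gene Cd79a was at 0.93 ± 0.78 FPKM in SG and 1.25 ± 1.085 FPKM in FG.

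Within each group a single library was highest in most macrophage markers. SG 101 was the highest SG library in 11 of the 12 and FG 95 the highest FG library in 11 of the 12, and both counts were the same after median-ratio scaling. Over all tested genes these libraries were highest in 35.5% and 29.4%. In the separate list of 27 tested Kupffer and macrophage genes, SG 101 was highest in 16 and FG 95 in 19. The median deviation of the 10 markers other than Cd74 and H2-Aa from their mean over the 8 libraries was 0.33 in SG 101 and 0.35 in FG 95, while it was -0.29 to -0.07 in the other SG libraries and -0.19 to 0.15 in the other FG libraries (log2 scale). The spread within each group was thus wider than the difference between the groups. FG 95 is also the library with adrenal genes, whose part in its macrophage markers was not tested.

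**Figure D3:**
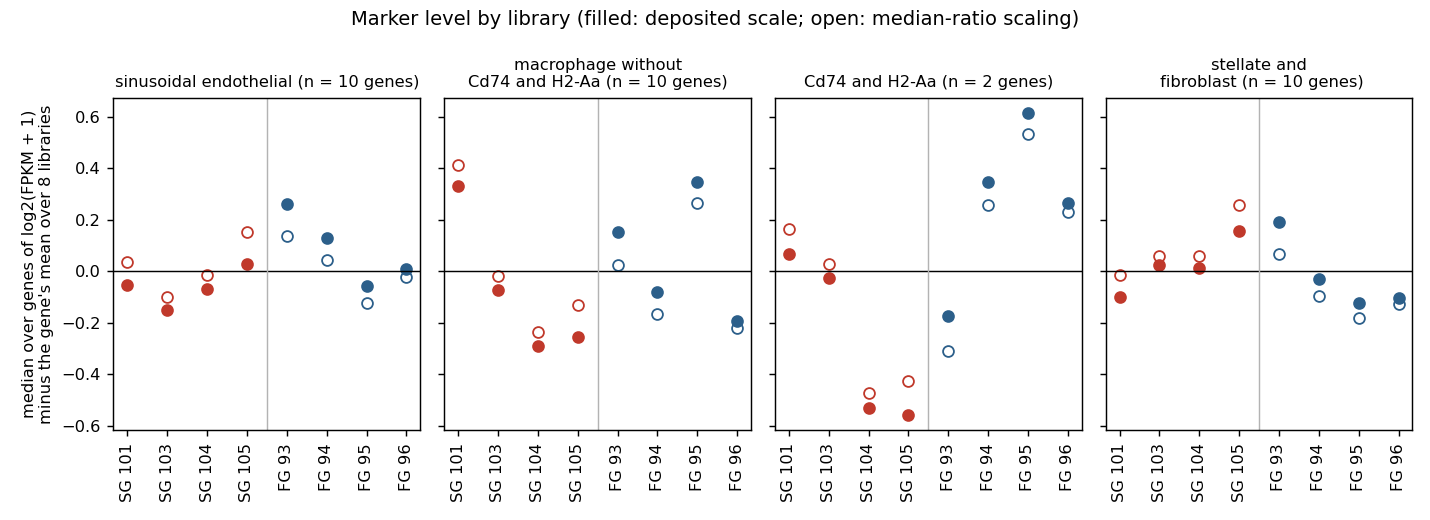
Each point is a library (SG red, left; FG blue, right) and gives the median, over the genes of a list, of log2(FPKM + 1) minus the gene's mean over the 8 libraries, as deposited (filled) and after median-ratio scaling (open). Macrophage markers are highest in SG 101 and FG 95 (0.33 and 0.35). Cd74 and H2-Aa are lowest in SG 104 and SG 105.

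Stellate cell and fibroblast markers showed no called gene among the 10 tested of 11, with 5 fold changes positive and 5 negative. At an unadjusted p below 0.05 limma found 0 of the 10, against 3517 of all 9867 tested genes. Limma voom called 0 of the 10, against 1846 of all tested genes. FG 93 was the highest FG library in 8 of the 10 (7 of 10 after median-ratio scaling), against 32.1% of all tested genes. In the separate list of 12 tested stellate cell genes it was highest in 3. The median log2 fold change of the 10 markers was -0.01 as deposited, 0.12 after median-ratio scaling, 0.13 without FG 93 and -0.08 without SG 105. Ecm1, an extracellular matrix protein and the most abundant on average, was at 55.8, 54.8, 54.4 and 57.4 FPKM in SG 101, 103, 104 and 105, against 66.3, 54.5, 66.6 and 57.3 FPKM in FG 93, 94, 95 and 96 (log2 fold change -0.13, SE 0.09, limma adjusted p = 0.324). Dcn, the proteoglycan decorin, was at 50.4 to 66.3 FPKM in SG and 50.5 to 63.3 FPKM in FG. Reln, a secreted glycoprotein made by stellate cells, was the steadiest marker in SG at 5.64 to 5.81 FPKM, and was at 4.65 to 5.90 FPKM in FG. The 95% intervals of Dcn and Reln, -0.15 to 0.36 and -0.10 to 0.31, allow only small differences on the deposited scale. After median-ratio scaling their log2 fold changes were 0.28 and 0.26, and neither passed (adjusted p = 0.124 and 0.0822).

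Fibrillar collagens were low in both groups. Col1a1, Col1a2 and Col3a1, whose proteins build scar matrix, averaged 1.02 ± 0.35, 1.73 ± 0.35 and 3.52 ± 0.72 FPKM in SG and 1.20 ± 0.52, 2.20 ± 0.58 and 4.47 ± 1.17 FPKM in FG (SD, n = 4 each). Col1a1 was below the level for testing, and its exact two-sided permutation p was 0.657. Col1a2 and Col3a1 did not pass (log2 fold changes -0.22 and -0.26, adjusted p = 0.306 and 0.274). FG 93 was the highest library in all 3. Col14a1, a collagen of quiet fibroblasts, averaged 5.89 ± 1.15 FPKM in SG and 5.90 ± 0.46 FPKM in FG. Lum, the proteoglycan lumican, averaged 3.36 ± 0.47 FPKM in SG and 3.01 ± 0.56 FPKM in FG. Pdgfrb, the receptor that drives stellate cell growth, averaged 1.35 ± 0.29 FPKM in SG and 1.35 ± 0.39 FPKM in FG, with a log2 fold change of 0.002 (95% interval -0.31 to 0.32).

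Hgf, the hepatocyte growth factor made by stellate cells, had the smallest adjusted p of the list. It was at 1.03, 2.52, 2.09 and 2.35 FPKM in SG 101, 103, 104 and 105, against 1.21, 2.20, 0.46 and 1.14 FPKM in FG 93, 94, 95 and 96. SG 101 lay below 3 of the FG libraries, and the log2 fold change of 0.44 (SE 0.25, limma adjusted p = 0.241) did not pass.

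Des, the intermediate filament desmin, is made by stellate cells and in far larger amounts by muscle. It was at 1.90, 1.94, 11.4 and 5.10 FPKM in SG 101, 103, 104 and 105, against 32.0, 2.09, 1.86 and 4.14 FPKM in FG 93, 94, 95 and 96. The order of libraries followed that of Ckm, the muscle creatine kinase, in its high values: Ckm was at 75.5 FPKM in SG 104, 27.5 FPKM in SG 105, 221 FPKM in FG 93 and 7.60 FPKM in FG 96, and at 1.33 FPKM or less in the other 4 libraries. Acta1, skeletal muscle actin, reached 135 FPKM in SG 104 and 471 FPKM in FG 93. The log2 fold change of Des was -0.30 (SE 0.78, limma adjusted p = 0.807), and it turned to 0.50 without FG 93. The part of muscle RNA in Des was not tested beyond these values. Pdgfrb and Reln, other markers of the list, ranged from 0.963 to 1.92 FPKM and from 4.65 to 5.90 FPKM over the same 8 libraries, and both were also highest in FG 93.

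**Figure D4:**
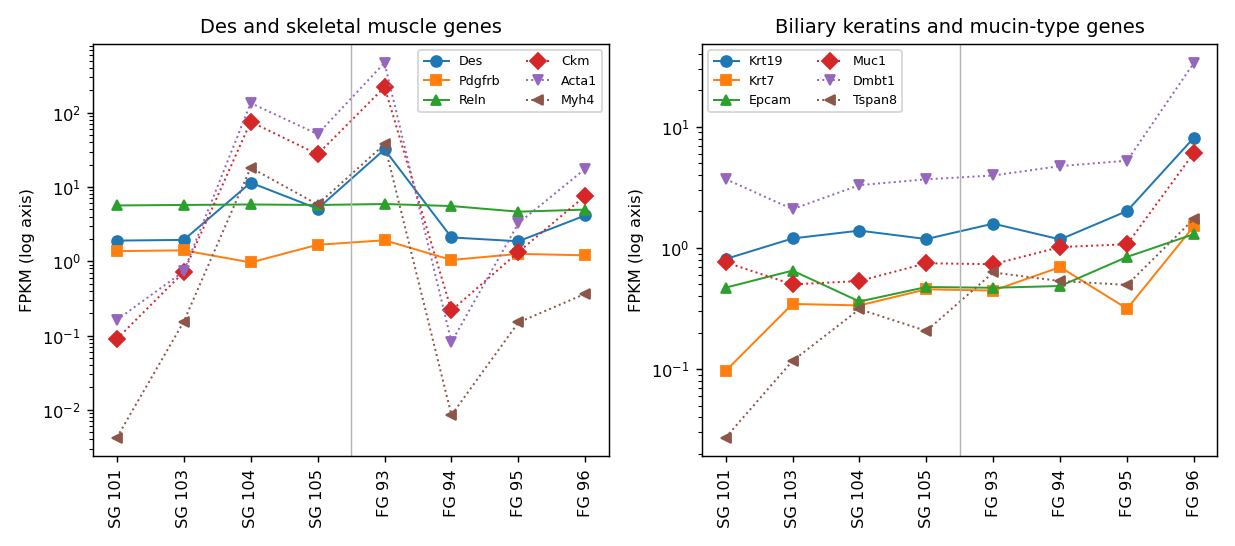
FPKM on a log axis in each library (SG left, FG right); lines only join the points of a gene. Left, Des is high where Ckm, Acta1 and Myh4 are high (SG 104, SG 105 and FG 93), while Pdgfrb (0.963 to 1.92 FPKM) and Reln (4.65 to 5.90 FPKM) vary less and are also highest in FG 93. Right, Krt19 (8.15 FPKM), Muc1 (6.12 FPKM) and Dmbt1 (33.8 FPKM) are highest in FG 96.

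Biliary markers held 4 of the 6 calls, in both directions, where 15.6% of all tested genes fell and 3.73% rose. Which cells made the RNA of these 4 genes was not tested. Of the 5 tested of 8, Krt23 and Spp1 fell in SG, Tff3 and Lgals4 rose, and Krt19 did not pass. The median log2 fold change of the 5 was -0.59, over genes that go both ways. It was -0.42 after median-ratio scaling, -0.27 without FG 96 and -0.52 to -0.71 without any 1 of the other libraries. The markers with the firmest tie to bile ducts, Krt7, Krt19, Epcam and Sox9, were low in both groups, except Krt19 in FG 96 (8.15 FPKM). Of these only Krt19 was tested, and it was not called. Krt7, Epcam and Sox9 were below the level for testing and so could not be called.

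Krt23, an acidic keratin that also appears in injured mouse liver (NCBI gene 94179, chromosome 11, positions 99477973 to 99493120), had the smallest adjusted p of all 41 markers. It was at 1.47, 0.654, 0.206 and 1.13 FPKM in SG 101, 103, 104 and 105, against 6.85, 5.71, 2.43 and 5.52 FPKM in FG 93, 94, 95 and 96. The highest SG library was below the lowest FG library, with 12 to 406 fragments per library behind these values. The means were 0.865 ± 0.551 FPKM in SG and 5.13 ± 1.89 FPKM in FG (SD, n = 4 each), and the log2 fold change was -1.70 (SE 0.29, limma adjusted p = 0.00733, exact two-sided permutation p = 0.0286). The call held after median-ratio scaling (log2 fold change -1.59, adjusted p = 0.0117) and in each of the 8 fits that left out 1 library, but not without FG 93 and SG 104 together (log2 fold change -1.37, adjusted p = 0.0554).

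Spp1, osteopontin, a secreted phosphoprotein that bile duct cells and also macrophages make (NCBI gene 20750, chromosome 5, positions 104435111 to 104441053), was at 11.6, 16.0, 10.5 and 11.6 FPKM in SG 101, 103, 104 and 105, against 19.0, 22.0, 19.2 and 15.9 FPKM in FG 93, 94, 95 and 96. Only SG 103 and FG 96 crossed, by less than 0.1 FPKM. The log2 fold change was -0.59 (SE 0.14, limma adjusted p = 0.0226). It did not pass after median-ratio scaling (log2 fold change -0.42, adjusted p = 0.0744) or without SG 104, SG 105, FG 93, FG 94 or FG 95 (adjusted p 0.0512 to 0.0619).

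Tff3, a trefoil peptide secreted with mucins (NCBI gene 21786, chromosome 17, positions 31125306 to 31129611), was at 4.73, 2.57, 1.98 and 11.5 FPKM in SG 101, 103, 104 and 105, against 0.400, 0.504, 0.832 and 1.55 FPKM in FG 93, 94, 95 and 96. All SG libraries lay above all FG libraries, and 7 to 204 fragments per library stood behind the values. The log2 fold change was 1.57 (SE 0.41, limma adjusted p = 0.0302) and 1.67 after median-ratio scaling (adjusted p = 0.0386). The call was lost without FG 93, FG 94 or FG 95 (adjusted p = 0.0858, 0.0627 and 0.0598).

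Lgals4, galectin-4, a sugar-binding lectin of gut epithelium (NCBI gene 16855, chromosome 7, positions 28833122 to 28841710), was at 8.91, 24.0, 29.4 and 23.5 FPKM in SG 101, 103, 104 and 105, against 8.35, 9.01, 5.06 and 12.2 FPKM in FG 93, 94, 95 and 96. SG 101 lay within the FG range and the other SG libraries above it. The log2 fold change was 1.16 (SE 0.35, limma adjusted p = 0.0482) and 1.32 after median-ratio scaling (adjusted p = 0.0461). Leaving out any 1 library other than SG 101 ended the call (adjusted p 0.0506 to 0.118).

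**Figure D5:**
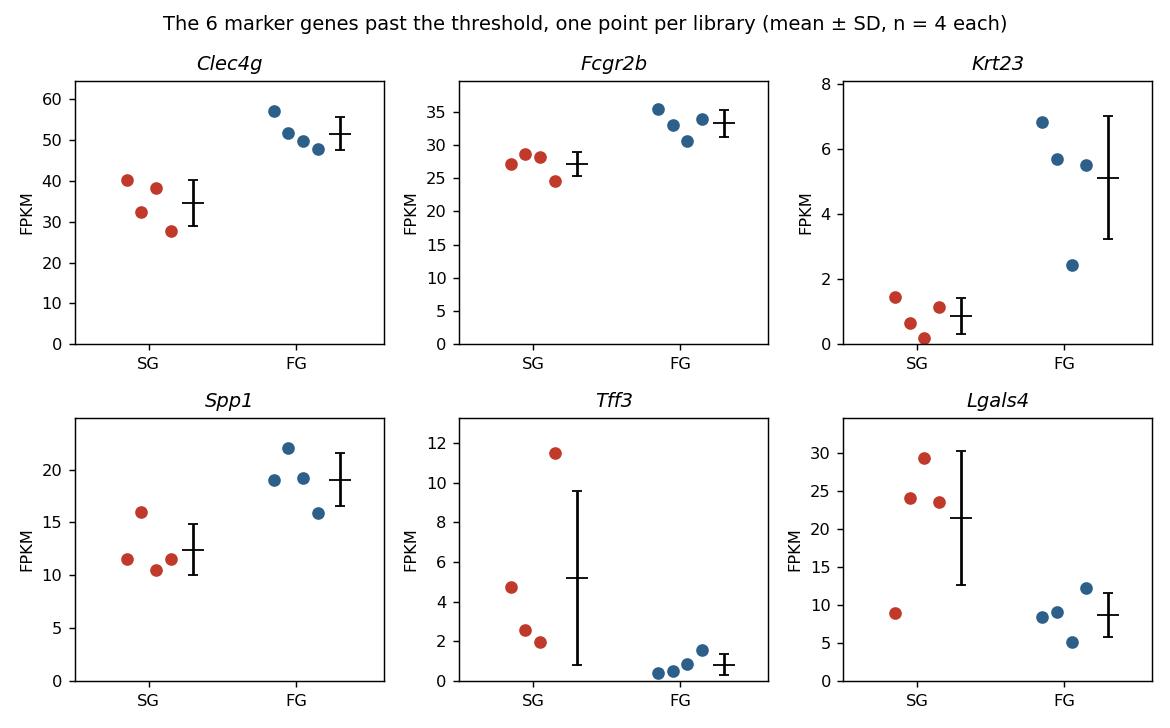
FPKM of the 6 markers past the threshold in each library (points; SG red, left; FG blue, right), with the mean and SD of the 4 libraries beside them. SG lies wholly below FG for Clec4g, Fcgr2b and Krt23 and wholly above it for Tff3. For Spp1 and Lgals4 a single SG library reaches the FG range.

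Upstream sequences of the called biliary markers are shown to set the genes that fell beside a gene that rose. They are again the 250 bases before the start in the RefSeq promoter table on the gene's strand (GRCm38.p6), at chr11:99493121-99493370 on the minus strand for Krt23, at chr5:104434861-104435110 on the plus strand for Spp1 (the most upstream of 2 annotated starts) and at chr7:28833544-28833793 on the plus strand for Lgals4, with the same 9 motifs in capitals. The Lgals4 window lies wholly inside the gene span given above, downstream of its first base at 28833122, because the table's start is not the outermost one.
Krt23: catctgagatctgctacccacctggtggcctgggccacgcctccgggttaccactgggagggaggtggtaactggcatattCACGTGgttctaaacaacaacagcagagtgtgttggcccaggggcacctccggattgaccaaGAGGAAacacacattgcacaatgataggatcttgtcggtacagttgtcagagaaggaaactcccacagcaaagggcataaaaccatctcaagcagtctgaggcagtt
Spp1: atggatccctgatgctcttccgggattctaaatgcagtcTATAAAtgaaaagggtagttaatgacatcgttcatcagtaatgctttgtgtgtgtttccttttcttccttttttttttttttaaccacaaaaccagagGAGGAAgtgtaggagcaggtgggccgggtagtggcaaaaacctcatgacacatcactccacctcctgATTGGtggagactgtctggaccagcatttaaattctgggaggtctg
Lgals4: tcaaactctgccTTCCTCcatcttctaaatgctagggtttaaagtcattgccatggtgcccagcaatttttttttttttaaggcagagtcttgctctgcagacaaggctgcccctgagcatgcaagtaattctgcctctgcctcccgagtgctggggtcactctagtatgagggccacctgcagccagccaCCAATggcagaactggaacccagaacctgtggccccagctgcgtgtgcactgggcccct
Krt23 was the only one of the 5 sequences printed here with the E-box CACGTG, from base -169 to -164, a motif in 6.02% of all promoter windows. All 3 held the ETS motif GAGGAA, found in 23.3% of windows, and Spp1 and Lgals4 held CCAAT, found in 33.8%. Spp1 also had TATAAA, from base -211 to -206 before that start. The genes that fell and the gene that rose thus share matches, and these letters do not separate them.

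Classical bile duct markers rested on few fragments. Krt19, a keratin of the duct lining, was at 0.810, 1.20, 1.39 and 1.19 FPKM in SG 101, 103, 104 and 105, against 1.59, 1.18, 2.02 and 8.15 FPKM in FG 93, 94, 95 and 96. FG 96 stood alone, and the log2 fold change of -0.73 (SE 0.39, limma adjusted p = 0.214) was -0.27 without it. Krt7, its partner keratin, was at 0.0965 to 0.456 FPKM in SG and 0.315 to 1.52 FPKM in FG. Epcam, an epithelial adhesion molecule, was at 0.362 to 0.651 FPKM in SG and 0.469 to 1.30 FPKM in FG. Sox9, a transcription factor of ducts and progenitor cells, was at 0.375 to 1.06 FPKM in SG and 0.346 to 0.782 FPKM in FG. These 3 genes were below the level for testing, and their exact two-sided permutation p-values were 0.200, 0.229 and 0.429 (n = 4 each). FG 96 was the highest FG library for all 4 genes. It also had the highest Muc1, a duct and gland mucin, at 6.12 FPKM against at most 1.07 FPKM elsewhere, and the highest Dmbt1, a mucosal scavenger protein, at 33.8 FPKM against at most 5.25 FPKM elsewhere. The last 2 genes were singled out after their values were seen. The part of these genes in the biliary values was not tested.

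Other lists of genes of the same cell types were read beside all tested genes, of which 15.6% fell and 3.73% rose. These lists, like the markers, were drawn up with earlier results of these data known. Among 22 tested endothelial genes, 2 fell and none rose. Bmp2, an iron-regulating ligand made by sinusoidal cells, averaged 4.11 ± 0.46 FPKM in SG and 5.6005 ± 0.72 FPKM in FG (log2 fold change -0.37, limma adjusted p = 0.0492). Icam2, an adhesion molecule, averaged 0.994 ± 0.086 FPKM in SG and 1.66 ± 0.30 FPKM in FG (log2 fold change -0.41, adjusted p = 0.0290). Of the 6 tested zonal Wnt and Notch genes of the endothelium limma and voom called 0. At an unadjusted p below 0.05 in limma there were 0 of the 6, against 3517 of all 9867 tested genes. The most abundant of the 6, Ltbp4, averaged 8.71 ± 2.30 FPKM in SG and 9.54 ± 1.498 FPKM in FG. Among 27 tested Kupffer and macrophage genes, 2 fell and none rose. Nr1h3, the oxysterol receptor LXR-alpha that hepatocytes also express, averaged 37.0 ± 3.02 FPKM in SG and 46.4 ± 2.87 FPKM in FG (log2 fold change -0.32, adjusted p = 0.0341). Fcgr4, an activating Fc receptor, averaged 3.28 ± 0.70 FPKM in SG and 5.66 ± 1.36 FPKM in FG (log2 fold change -0.63, adjusted p = 0.0381). None of these 4 calls held after median-ratio scaling.

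Larger differences appeared in a few genes outside the member lists. Cd9, a tetraspanin that many cell types carry and that also marks lipid-associated macrophages, averaged 5.71 ± 0.88 FPKM in SG and 26.2 ± 6.98 FPKM in FG (log2 fold change -1.995, SE 0.18, limma adjusted p = 0.000529). Among the 3 tested monocyte and lipid-associated macrophage genes it alone was called, and Trem2 and Gpnmb, more restricted markers of those cells, were below the level for testing. Among 12 tested stellate cell genes beside the members, 2 were called, 1 of them in each direction, where 19.4% of all tested genes were called. Tagln, a smooth muscle actin-binding protein, averaged 6.12 ± 0.42 FPKM in SG and 8.48 ± 1.39 FPKM in FG (log2 fold change -0.40, adjusted p = 0.0430), and was not called after median-ratio scaling (log2 fold change -0.25, adjusted p = 0.244). Lrat, the enzyme that stores vitamin A, averaged 2.85 ± 0.62 FPKM in SG and 3.10 ± 0.69 FPKM in FG and was not called. Acta2 of the same list, at an unadjusted p below 0.05 in limma, averaged 2.38 ± 0.56 FPKM in SG and 4.52 ± 1.90 FPKM in FG. It was not called (log2 fold change -0.65, limma adjusted p = 0.09998), nor after median-ratio scaling (log2 fold change -0.52, adjusted p = 0.229). Of the 11 tested matrix genes limma called 0 and voom called 1. At an unadjusted p below 0.05 in limma there were 3 of the 11 (Col4a2, Mgp and Tgfb1), against 3517 of all 9867 tested genes. The most abundant, fibronectin (Fn1), which hepatocytes make in bulk, averaged 187 ± 18.0 FPKM in SG and 212 ± 19.6 FPKM in FG.

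Among 8 tested biliary genes beside the members, 3 fell and none rose, where 15.6% of all tested genes fell and 3.73% rose. The other 9 of the 17 genes on that list, Cldn4, Cldn7, Prom1 and Cftr among them, were below the level for testing. Which cells made the RNA of the tested genes was not tested. Pdzk1ip1, a small membrane protein, averaged 1.47 ± 0.78 FPKM in SG and 5.75 ± 1.34 FPKM in FG (log2 fold change -1.48, limma adjusted p = 0.00419). It alone of the 3 was also called after median-ratio scaling, where all 3 fold changes stayed negative. Anxa4, an annexin, averaged 15.1 ± 1.68 FPKM in SG and 20.7 ± 2.51 FPKM in FG (adjusted p = 0.0306). Tm4sf4, a membrane protein of the tetraspan kind, averaged 28.9 ± 3.62 FPKM in SG and 39.7 ± 5.48 FPKM in FG (adjusted p = 0.0368). The ion channel Cftr of bile ducts averaged 0.009 FPKM in SG and 0.021 FPKM in FG.

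Genes of mesothelial and lymphoid cells were low, while red cell genes were abundant. All 4 mesothelial genes and all 6 B-cell and plasma cell genes in the table were below the level for testing, as were 15 of 16 T-cell and NK-cell genes. Upk3b, the most abundant mesothelial gene, averaged 0.292 ± 0.178 FPKM in SG and 0.652 ± 0.318 FPKM in FG. Ccl5, a T-cell chemokine, averaged 1.81 ± 0.65 FPKM in SG and 1.82 ± 0.42 FPKM in FG. Of 2 tested neutrophil genes S100a9 fell (0.844 ± 0.274 FPKM in SG and 1.68 ± 0.34 FPKM in FG, log2 fold change -0.54, adjusted p = 0.0298), a call that did not hold after median-ratio scaling (adjusted p = 0.0722). Of 5 tested red cell and platelet genes Alas2, the first enzyme of heme synthesis in red cell precursors, rose (64.1 ± 11.4 FPKM in SG and 39.3 ± 5.19 FPKM in FG, log2 fold change 0.68, adjusted p = 0.0146), while adult globin Hbb-bs averaged 157 ± 14.5 FPKM in SG and 170 ± 19.4 FPKM in FG and was not called. Of 15 hepatocyte genes Apoa1 rose and Cebpa fell, where 3.73% of all tested genes rose and 15.6% fell. After median-ratio scaling Apoa1 and Ahsg were called higher (adjusted p = 0.0347 and 0.0390) and Cebpa was not called (adjusted p = 0.0507). Alb, the most abundant, differed by 0.01 on the log2 scale (adjusted p = 0.9747).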

How the data were processed

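Per the labels' protocols, liver RNA was extracted with TRIzol and its mRNA fraction was sequenced in paired reads of 150 bp on an Illumina instrument. The submitters' processing notes name fastp, HISAT2, HTSeq and DESeq2 and the builds GRCm38 and mm10, but neither a version nor a role for any of them. The deposited values are FPKM, computed by the authors, with a strand setting not given in the sources, for 21358 genes in 8 libraries, and 0 columns were left unmatched.

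From these, log2(FPKM + 1) of the 9867 genes with at least 1 FPKM in at least 4 libraries was fitted with limma 3.58.1 in R 4.3.3 (all 8 libraries, no covariates, mean-variance trend), with Benjamini-Hochberg adjustment over all tested genes and a two-sided threshold of 0.05. Fold changes are SG minus FG on that scale, which understates changes of low genes. Exact permutation tests ran over the 70 assignments of 4 and 4 libraries (smallest p = 0.0286). FPKM values were whole multiples of the value of 1 fragment in 100% of genes (tolerance 0.02 fragments), which gave the depths. The total was set by 396 genes whose length matched GENCODE vM21. The fit and the depth recovery were tested on simulated data. Fits on scaled values, recovered fragments (limma voom, 1846 genes called) and fewer libraries were compared as alternatives.

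The members, the other gene lists and the rule for named genes were chosen with earlier results of these data known. All 41 members are described. Those called, those with the smallest adjusted p and the highest mean of each cell type, and those in which a single library stood apart have their value in every library. Up to 3 called genes of each other list are named, or its most abundant gene, except that some are not reported here; other genes named were chosen after their values were seen. Of 222 genes on the 15 other lists, 219 were found. Positions are from RefSeq, GRCm38.p6. RefSeq promoters matched 26 of the 41 members, 5 of the 6 called; Tff3 is named without a sequence.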

Additional observations from a re-analysis of the deposited data

Results flagged for a closer look

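In 9 of 82 groups of 4 libraries (41 markers in SG and in FG), a single library stood apart from the other 3 of its group by Dixon's criterion at 95%. Chance gives such a library in about 1 of 20 groups.

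Among endothelial markers, Lyve1 reached 8.36 FPKM in SG 105, against 1.34 to 2.24 FPKM in the other SG libraries. Oit3 was lowest in SG 103 at 9.15 FPKM, against 11.9 to 12.4 FPKM in the others. Among macrophage markers, Marco reached 46.7 FPKM in SG 101, against 4.48 to 7.71 FPKM in the other SG libraries.

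Among stellate and fibroblast markers, Des reached 32.0 FPKM in FG 93, against 1.86 to 4.14 FPKM in the other FG libraries. In that library Col1a1 (1.97 FPKM) and Col1a2 (3.06 FPKM) also stood apart, from 0.862 to 0.990 FPKM and 1.88 to 1.97 FPKM in the other FG libraries. Col3a1 stood apart in SG 105, at 4.61 FPKM against 3.14 to 3.18 FPKM. Col1a2 was lowest in SG 103, at 1.21 FPKM against 1.84 to 1.94 FPKM. Among biliary markers, Krt19 reached 8.15 FPKM in FG 96, against 1.18 to 2.02 FPKM in the other FG libraries.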

How the results depend on the processing

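Values of some markers rest on few fragments per library, such as 6 to 95 for Krt7 and 7 to 204 for Tff3. Each group has 4 libraries, and genes of other organs were high in single libraries. Of the 6 calls, Krt23 was kept in every planned setting in which it was tested, and was lost only without FG 93 and SG 104 together (adjusted p = 0.0554). Counts of all genes called, 1912 as reported, were 1133 with no filter, 1044 with median-ratio, 1059 with trimmed mean (TMM) and 1078 with quantile scaling, and 2922 at an adjusted p below 0.1. With voom and TMM 1060 genes were called, and 282 without FG 93 and SG 104, the libraries highest in muscle genes; both settings were chosen after seeing the data. Leaving out 1 library gave 834 (without FG 93) to 2363 (without SG 101).

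Markers higher in SG, 2 as reported, numbered 1 with a pseudocount of 0.1, robust variance, library weights or voom. With a mean of at least 5 FPKM they also numbered 1, and there Tff3 (mean 3.01 FPKM) was not tested. With no filter, with voom and TMM or without FG 93 and SG 104 they numbered 0. They numbered 0 to 2 when 1 library was left out. Markers lower in SG, 4 as reported, numbered 2 with no filter, quantile scaling or voom with TMM, 1 with median-ratio or TMM scaling, 0 without FG 93 and SG 104, and 2 to 5 when 1 library was left out. The causes were not tested.

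Fold changes that turned sign were all uncalled. Under median-ratio scaling they were Adgre1 0.040, Cd163 0.14, Cd5l 0.086, Col14a1 0.13, Csf1r 0.0026, Ecm1 0.042, Kdr 0.065, Stab2 0.15, Tek 0.087 and Timd4 0.052. Under TMM scaling they were Adgre1 0.030, Cd163 0.13, Cd5l 0.074, Col14a1 0.12, Ecm1 0.030, Kdr 0.054, Stab2 0.14, Tek 0.079 and Timd4 0.043. Under quantile normalization they were Adgre1 0.044, Cd163 0.14, Col14a1 0.14, Csf1r 0.00091, Kdr 0.057, Stab2 0.15, Tek 0.090 and Timd4 0.051. Without mitochondrial and the 10 most abundant genes they were Cd163 0.0093, Col14a1 0.0024 and Stab2 0.011, and with library weights Cd163 0.076, Des 0.16 and Pdgfrb -0.044. Leaving out 1 library gave ranges across zero for Cd163 (-0.10 to 0.12), Cd5l (-0.30 to 0.068), Col14a1 (-0.10 to 0.098), Des (-0.74 to 0.50), Kdr (-0.17 to 0.020), Lyve1 (-0.19 to 0.47), Pdgfrb (-0.062 to 0.11), Stab1 (-0.033 to 0.070), Stab2 (-0.096 to 0.038), Tek (-0.096 to 0.030) and Vsig4 (-0.015 to 0.14). No paired analysis was possible because SG and FG share no replicate numbers.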
